A study of Mus musculus with 9 samples.

Results

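The miR-30 family of mouse microRNAs was followed in B16F1 cells, an established melanoma line from the skin of C57BL/6J mice (C57BL/6 in the strain label) that makes melanin. Its members were taken by name from a table of small RNA counts, as every entry under the hairpins mmu-mir-30a, mmu-mir-30b, mmu-mir-30c (copies 1 and 2), mmu-mir-30d and mmu-mir-30e together with the mature names of the same members. This gave 156 of 6414 table entries, for 5 members from 6 hairpins. Of the 156 entries, 145 were sequence tags and 11 were mature names, and the mature names had 0 counts in every library. Tags were summed by member and by arm, a tag that starts before position 35 of its hairpin being taken as 5p and any other as 3p. Of the 10 member arms, 9 had at least 1 count. The family took 110195 of the 2381030 counts in the table.

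The study asked how small RNAs change when B16F1 cells lose proliferation and shift in pigmentation. Control cells received no addition (3 libraries). The L-Tyr group received 5.0 mM L-tyrosine, the amino acid from which melanin is made (3 libraries). The 5-Brd-2′-dU group received 2.5 µg/mL of the thymidine analog 5-bromo-2′-deoxyuridine (3 libraries). All 9 cultures were of the same unmodified line and were kept for 72 h, and the design text calls the 3 replicates of each group independent. The 3 control libraries serve in both comparisons with unexposed cells, which are therefore not independent of each other.

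A microRNA hairpin is cut by Drosha and Dicer into a duplex, and 1 strand of it is usually kept in an Argonaute protein, where the seed near its 5′ end pairs with target mRNAs. The 5p arms of the miR-30 family share their seed and differ mainly in the 3′ part, while the 3p arms carry other seeds. In other tissues the family is known for roles in differentiation, epithelial identity, apoptosis and autophagy.

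The mature sequences below show what the members share and where they differ, with bases 2 to 8, the seed, in capitals. They are RefSeq sequences (GRCm38.p6), written 5′ to 3′.
miR-30a-5p: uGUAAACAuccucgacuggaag
miR-30c-5p: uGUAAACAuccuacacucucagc
miR-30e-5p: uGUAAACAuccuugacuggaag
miR-30a-3p: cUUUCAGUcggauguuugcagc
miR-30e-3p: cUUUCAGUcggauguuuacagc
miR-30c-1-3p: cUGGGAGAggguuguuuacucc
miR-30c-2-3p: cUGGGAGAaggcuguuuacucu
These fall into 3 seed groups, with 3 members of the 5p group, the 3p arms of miR-30a and miR-30e as a pair, and the copies of miR-30c-3p as another pair. The 3p arms of miR-30a and miR-30e differed by a single substitution, G18A, counted from 1 at the 5′ end of miR-30a-3p. A further microRNA with the 5p seed, miR-384-5p, had 0 counts in the 9 libraries.

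For miR-30d-5p and miR-30b-5p, the deposited tags themselves are shown, again with the bases of the seed in capitals. These are the most abundant tags that begin at the first 5p start position of their hairpin, with those of miR-30a-5p and miR-30c-5p beside them for comparison.
miR-30d-5p: tGTAAACAtccccgactgga
miR-30a-5p: tGTAAACAtcctcgactgga
miR-30b-5p: tGTAAACAtcctacactcag
miR-30c-5p: tGTAAACAtcctacactctc
Positions are counted from 1 at the 5′ end of the tag. Over these 20 bases miR-30a-5p and miR-30d-5p differed by T12C alone, so that 19 of 20 bases were identical. The tags of miR-30b-5p and miR-30c-5p differed by A19T and G20C. Between miR-30b-5p and miR-30d-5p 14 of 20 bases were identical. A tag that ends before the bases that differ can be listed under more than 1 member, and 2 of the 132 distinct tag sequences were, with 76 counts or 0.0690% of the family.

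The hairpins lie in 3 pairs in the mouse genome (mm9, the build of the study, read from NCBIM37). Mir30d spans chr15:68172770-68172851 and Mir30b chr15:68168977-68169072, both on the minus strand, 3698 bp apart and inside no annotated gene. The miR-30d-5p tag printed above matched chr15:68172821-68172840 and the miR-30b-5p tag chr15:68169033-68169052. Mir30a (chr1:23279108-23279178) and Mir30c-2 (chr1:23298540-23298623) lie 19362 bp apart on the plus strand, also inside no annotated gene. Mir30e (chr4:120445211-120445302) and Mir30c-1 (chr4:120442139-120442227) lie 2984 bp apart in introns of Nfyc, which encodes a subunit of the CCAAT-binding factor NF-Y, on the same strand as the gene. Of the counts of miR-30c-5p, 99.8% were in tags listed under both copies, so its 5p arm cannot be assigned to either locus.

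The total count per library ran from 144452 to 424122. The paper reports far more reads per library, averaged by group, so these totals are not the full sequencing depth. Levels are given in CPM, counts per 1000000 counts of a library. A member at 0 counts could have been present at up to 3 counts, which is 7.07 to 20.8 CPM before scaling, depending on the library. Replicate 3 of 5-Brd-2′-dU stood apart from the other libraries. The 5 stromal and endothelial microRNAs that were checked made up 20.3% of its counts, of which miR-143-3p alone was 19.4%, against 0.146% to 0.811% for the 5 together in the other 8 libraries. Its 3 erythroid microRNAs were at 0.532% and its 4 leukocyte microRNAs at 0.110%, against at most 0.0432% and 0.00756% elsewhere, and of the 3 muscle microRNAs 1 was counted, at 0.0173% in this library and 0% in the other 8. The liver microRNA miR-122 reached 0.00839% at most, in L-Tyr replicate 2. The melanocyte lineage microRNAs miR-211 and miR-204 were counted in all 9 libraries, at 1.09% to 1.56% in controls, 2.46% to 2.86% after L-Tyr and 0.542% to 0.804% after 5-Brd-2′-dU. The most abundant name of the table, miR-3963, took 13.5% to 22.0% of control counts and 4.10% to 4.97% of the counts in exposed cells. The part of these differences in the results that follow was not tested. Some log2 fold changes of 5-Brd-2′-dU are also given without replicate 3. The sums, shares and ratios of this group include it unless stated.

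Over all libraries, miR-30d-5p held 62.3% of the counts of the family, miR-30a-5p 15.7%, miR-30b-5p 7.59% and miR-30a-3p 6.47%. The other arms with counts followed with miR-30e-3p at 2.62%, miR-30c-5p at 2.24%, miR-30c-3p at 1.74%, miR-30e-5p at 1.26% and miR-30b-3p at 0.104%. In control cells the order by mean level, in CPM with TMM scaling, was miR-30d-5p (21705 ± 945, SD, n = 3), miR-30a-5p (6696 ± 491), miR-30a-3p (4066 ± 290), miR-30b-5p (3900 ± 352), miR-30e-3p (1176 ± 331), miR-30c-3p (950 ± 357), miR-30c-5p (729 ± 345), miR-30e-5p (519 ± 61.8) and miR-30b-3p (69.8 ± 17.5). The ranges of the control libraries overlapped between miR-30a-3p and miR-30b-5p, and between each arm and the next from miR-30e-3p to miR-30e-5p. These ranges do not settle the order of such neighbours. The ends of that run, miR-30e-3p (794 to 1382 CPM) and miR-30e-5p (452 to 574 CPM), did not overlap. The 3p arm of miR-30d had 0 counts in all 9 libraries. Adapter ligation is known to differ between small RNAs and is not corrected in counts, so levels of different members compare less directly than those of 1 member across libraries.

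**Figure D1:**
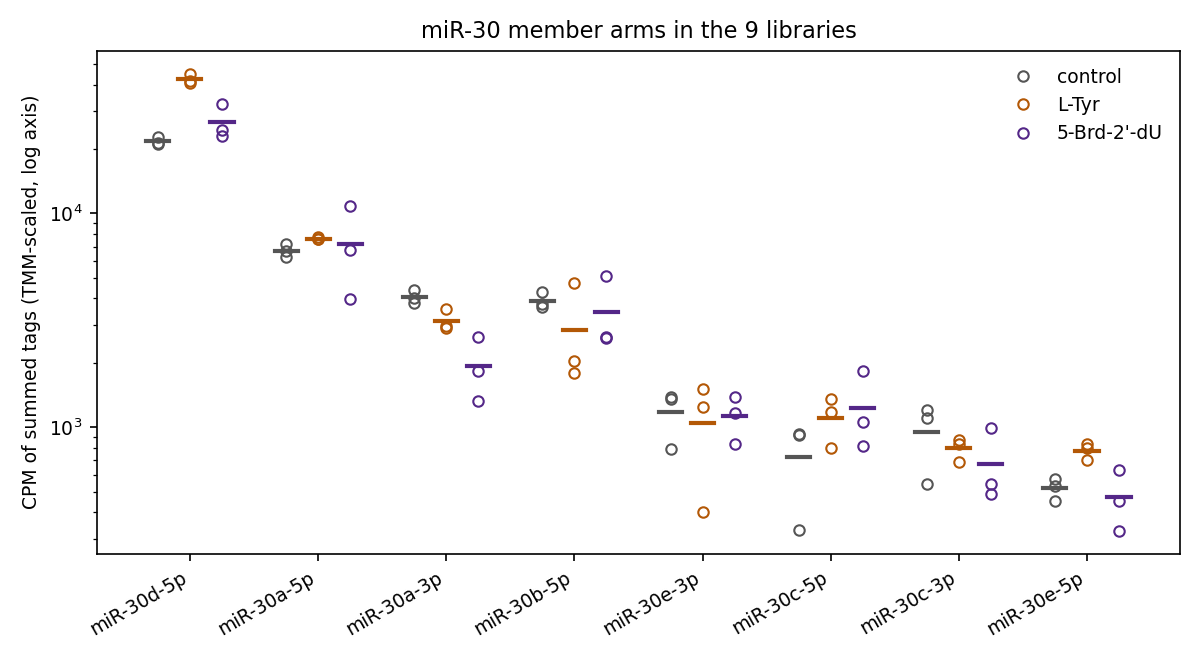
Level of 8 miR-30 member arms in each of the 9 libraries, in CPM with TMM scaling on a log axis; circles are libraries and bars are group means (n = 3). For miR-30d-5p the L-Tyr libraries sit between 40781 and 45061 CPM, above all control libraries (21092 to 22794), and miR-30b-3p and miR-30d-3p, at or near 0, are not drawn.

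L-Tyr against control. The comparison asks which member arms change when the cells are given the melanin precursor. The most abundant member, miR-30d-5p, was higher after L-Tyr, and it was the only 1 of 9 member arms tested that was called. Its level was 21230, 22794 and 21092 CPM in the control libraries and 45061, 40781 and 41696 CPM after L-Tyr. Every L-Tyr library was above every control library, and the gap was far wider than the spread within either group. In edgeR's quasi-likelihood test its log2 fold change reached 0.88 (SE 0.150), with an adjusted p of 0.0173. Among all 235 names tested, 6 were called (2.55%), of which 4 were higher (1.70%). At an unadjusted p under 0.05 it was likewise the 1 member arm, against 14.9% of all names.

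The call on miR-30d-5p was kept in 12 of 17 alternative settings and its log2 fold change lay between 0.88 and 1.12 in all of them. It was lost when control replicate 1 (adjusted p 0.0997 in edgeR), control replicate 3 (0.0832), L-Tyr replicate 1 (0.111) or L-Tyr replicate 3 (0.0930) was left out, with a log2 fold change of 0.91 to 0.99, and when only its most abundant tag was tested (log2 fold change 0.91, adjusted p 0.181). Under scaling by total count the median log2 fold change of all names moved from −0.19 to 0.06, and relative to this median the change of miR-30d-5p was 1.07 with TMM and 1.06 by total count. The melanocyte lineage microRNAs, given above, were higher in the same 3 L-Tyr libraries, and their part in this result was not tested.

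The other 5p arms did not pass the test. For miR-30a-5p, which shares all but 1 base with miR-30d-5p over the tag, the libraries held 7214, 6637 and 6237 CPM in controls and 7582, 7728 and 7570 CPM after L-Tyr. These groups did not overlap, but the difference was small (log2 fold change 0.10, SE 0.180, adjusted p 0.935 in edgeR). The counts of miR-30e-5p were low, at 452, 574 and 530 CPM against 699, 838 and 796 CPM, again without overlap (log2 fold change 0.49, SE 0.445, adjusted p 0.737). For miR-30c-5p the values were 923, 933 and 331 CPM in controls and 1181, 796 and 1349 CPM after L-Tyr, so the groups overlapped (log2 fold change 0.50, SE 0.504).

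The genomic neighbour of miR-30d, miR-30b-5p, had a log2 fold change of −0.54 (SE 0.365, adjusted p 0.587 in edgeR). It was at 4300, 3764 and 3635 CPM in controls and at 1801, 4725 and 2040 CPM after L-Tyr. L-Tyr replicates 1 and 3 lay below all controls and replicate 2 above them. Without L-Tyr replicate 2 the log2 fold change was −1.06 and the adjusted p 0.0572. That library also had the highest share of the stromal and endothelial microRNAs in its group (0.811%, against 0.255% and 0.253%). Whether this had a part in its level of miR-30b-5p was not tested.

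Among the 3p arms, miR-30a-3p was at 3813, 4003 and 4383 CPM in controls and at 2969, 3558 and 2899 CPM after L-Tyr. All 3 L-Tyr libraries were lower, and the difference did not pass the test (log2 fold change −0.46, SE 0.215, adjusted p 0.351 in edgeR). When libraries were scaled by total count it was −0.21 (adjusted p 0.900), and L-Tyr replicate 2 (3904 CPM) then lay above control replicates 1 and 3 (3863 and 3666 CPM). The 3p arms of miR-30c and miR-30e overlapped between the groups, at log2 fold changes of −0.32 (SE 0.425) and −0.25 (SE 0.517), and the latter was 0.02 when libraries were scaled by total count. For miR-30b-3p only 10, 35 and 18 counts were found in controls and 0, 42 and 0 after L-Tyr, so no change was detectable at these counts. In all, 4 of 9 arms did not overlap between the groups (miR-30d-5p, miR-30a-5p and miR-30e-5p higher, miR-30a-3p lower), against 21.3% of all names tested, 10.2% higher and 11.1% lower. By total count these were 3 of 9, without miR-30a-3p, against 21.7% of all names. The median log2 fold change over the 9 arms was −0.25, beside −0.19 over all names.

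**Figure D2:**
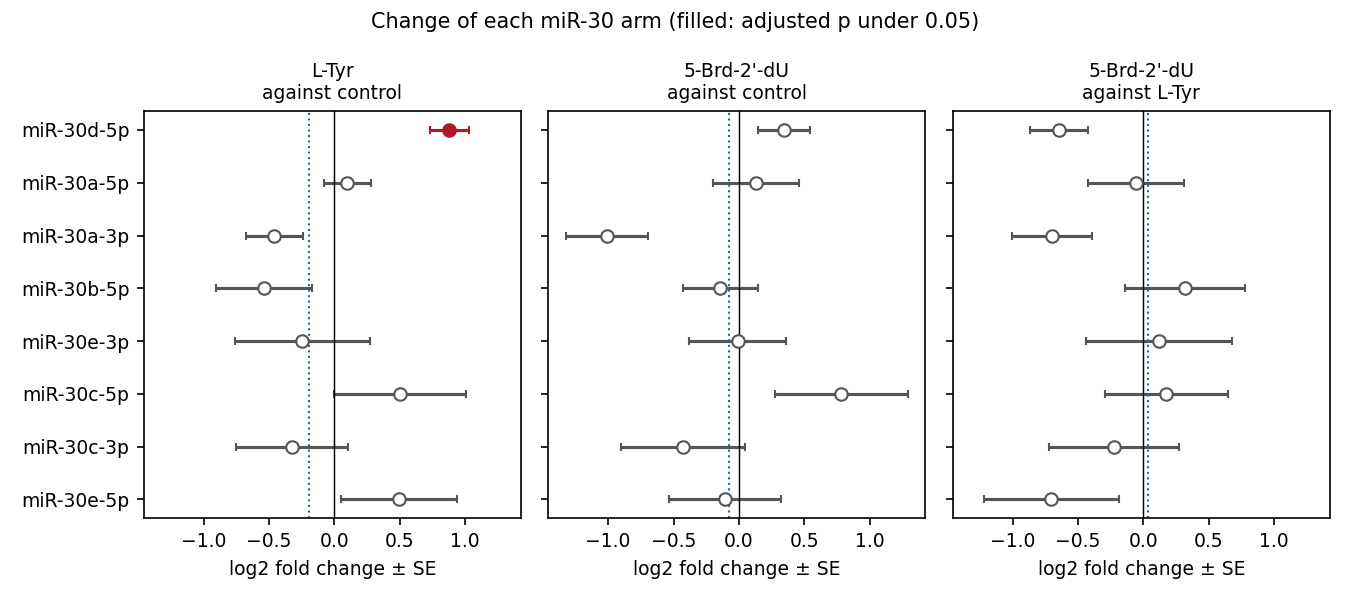
Log2 fold change with its SE of 8 miR-30 arms in the 3 comparisons, from edgeR; filled symbols mark an adjusted p under 0.05, the solid line marks 0 and the dotted line the median of all names tested. Only miR-30d-5p after L-Tyr is filled (0.88 ± 0.150), and miR-30a-3p lies lowest of these 8 after 5-Brd-2′-dU (−1.01 ± 0.315).

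5-Brd-2′-dU against control. This comparison asks the same of cells exposed to the thymidine analog. None of the 9 member arms was called by edgeR, against 12 of 255 names in all (4.71%). DESeq2's Wald test on the same summed counts also called none of them. The paper's own DESeq2 comparison of mature microRNAs lists miR-30d-5p as higher and miR-30a-3p as lower. Its RT-qPCR also gave a higher miR-30d-5p. Of the 9, only miR-30a-3p had an unadjusted p under 0.05 in edgeR, against 18.8% of all names. Its level was 3813, 4003 and 4383 CPM in controls and 2638, 1829 and 1328 CPM after 5-Brd-2′-dU. Each exposed library lay below each control. With all libraries edgeR gave a log2 fold change of −1.01 (SE 0.315, adjusted p 0.141), and without replicate 3 of 5-Brd-2′-dU, the lowest of the 3, it gave −0.78 (SE 0.262, adjusted p 0.225).

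The most abundant tag of miR-30a-3p, in which the seed starts at the first base, shows the same strand at tag level.
miR-30a-3p tag: tttcagtcggatgtttgcag
Its raw counts were 279, 330 and 290 in controls and 104, 247 and 89 after 5-Brd-2′-dU. These counts are not scaled. The totals of the same libraries were 198810, 424122 and 263808 in controls and 171362, 384486 and 381324 after 5-Brd-2′-dU. The tag held 24.4% of the counts of the arm, which were spread over 23 tags.

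For miR-30d-5p the 5-Brd-2′-dU libraries held 24658, 23057 and 32643 CPM, against 21092 to 22794 CPM in controls. The groups did not overlap, yet replicate 2 lay just over the highest control. Its fitted difference was 0.34 on the log2 scale (SE 0.197, adjusted p 0.394 in edgeR), and 0.22 (SE 0.189, adjusted p 0.708) without replicate 3. The other 5p arms spread widely after 5-Brd-2′-dU. The level of miR-30a-5p was 3990, 6727 and 10805 CPM, that of miR-30b-5p 2644, 2615 and 5121 CPM and that of miR-30c-5p 813, 1061 and 1830 CPM. Replicate 3 was the highest of its group for all 5 of the 5p arms, and for 3 of the 5 when libraries were scaled by total count. It had the lowest TMM factor of the 9 libraries (0.747).

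The fitted log2 fold changes of these arms were 0.13 (SE 0.327) for miR-30a-5p, −0.14 (SE 0.290) for miR-30b-5p, 0.78 (SE 0.511) for miR-30c-5p and −0.11 (SE 0.429) for miR-30e-5p. Without replicate 3 they were −0.23, −0.48, 0.43 and −0.32, so the sign of miR-30a-5p depended on that library. The 3p arms of miR-30c (−0.43, SE 0.474) and miR-30e (−0.01, SE 0.368) did not pass. For miR-30b-3p the counts were 7, 0 and 3 after 5-Brd-2′-dU, at most 41.0 CPM, against 49.6 to 81.6 CPM in controls, and the test did not pass (log2 fold change −2.03, SE 1.60, adjusted p 0.600 in edgeR). Of the 9 arms, 3 did not overlap between the groups (miR-30d-5p higher, miR-30a-3p and miR-30b-3p lower), against 28.2% of all names, 12.9% higher and 15.3% lower. The median log2 fold change over the arms was −0.11, beside −0.08 over all names.

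5-Brd-2′-dU against L-Tyr. Here the exposures were compared directly, and 8 member arms passed the filter on low counts, miR-30b-3p being left out by it. None was called by edgeR or by DESeq2's Wald test on the same summed counts, against 6 of 224 names in edgeR (2.68%). The paper's own DESeq2 comparison of mature microRNAs lists miR-30d-5p and miR-30a-3p as lower here. In edgeR 1 arm had an unadjusted p under 0.05, against 13.8% of all names. This was miR-30d-5p, with every 5-Brd-2′-dU library (23057 to 32643 CPM) below every L-Tyr library (40781 to 45061 CPM). The fitted difference was −0.65 on the log2 scale (SE 0.220, adjusted p 0.243 in edgeR), and without replicate 3 of 5-Brd-2′-dU it was −0.83 (SE 0.178, adjusted p 0.0773). In edgeR the higher level after L-Tyr than in controls was thus called, while the difference between the exposures was not.

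In the same direct comparison miR-30e-5p was at 328, 451 and 629 CPM after 5-Brd-2′-dU, below the 699 to 838 CPM after L-Tyr (log2 fold change −0.70, SE 0.518, adjusted p 0.684 in edgeR). The 3p arm of miR-30a was also lower without overlap (log2 fold change −0.70, SE 0.305, adjusted p 0.372). These 3 arms were the ones that did not overlap, out of 8, all lower after 5-Brd-2′-dU, against 9.38% of all names lower and 21.0% in either direction. The remaining 5 arms lay between −0.23 for miR-30c-3p and 0.32 for miR-30b-5p, with miR-30c-5p at 0.18 and miR-30a-5p at −0.06. Without replicate 3 of 5-Brd-2′-dU the log2 fold change was −0.11 for miR-30b-5p, −0.24 for miR-30c-5p and −0.50 for miR-30a-5p. It was then −0.10 for miR-30c-3p, 0.09 for miR-30e-3p, −0.99 for miR-30e-5p and −0.49 for miR-30a-3p. The signs of miR-30b-5p and miR-30c-5p thus depended on that library, with each value within 1 SE of 0. With all libraries the median over the 8 arms was −0.14, beside 0.04 over all names.

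Sums over the family followed miR-30d-5p. The family took 4.05%, 4.30% and 3.24% of all counts in controls, 6.33%, 6.69% and 6.35% after L-Tyr and 3.63%, 4.57% and 4.04% after 5-Brd-2′-dU. The L-Tyr libraries lay above all others, by 2.60 percentage points over controls (SE 0.340), with p = 0.1 in an exact permutation test (two-sided), below which 3 against 3 libraries cannot go (adjusted over 3 comparisons, 0.15). The difference between 5-Brd-2′-dU and control was 0.217 points (SE 0.419, exact permutation p = 0.7). With miR-30d-5p left out, the sum of the other arms was 18105 ± 575 CPM in controls, 17410 ± 2497 CPM after L-Tyr and 16091 ± 4908 CPM after 5-Brd-2′-dU (SD, n = 3 each), and the ranges of the 3 groups overlapped.

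Shares within the family need no scaling between libraries. Of all 5p counts, miR-30d-5p held 62.2%, 65.7% and 66.3% in controls, 80.0%, 74.3% and 78.0% after L-Tyr and 76.0%, 68.0% and 64.0% after 5-Brd-2′-dU. L-Tyr was higher than control in every library, by 12.7 points (SE 2.09, exact permutation p = 0.1, adjusted 0.375 over 15 tests), while 5-Brd-2′-dU overlapped with control. The share of miR-30a-5p fell from 20.0% ± 1.06 to 13.9% ± 0.384 (SD, n = 3) in the means of control and L-Tyr libraries, which did not overlap (exact permutation p = 0.1, adjusted 0.375). Shares are tied to each other, so a larger share of 1 member lowers those of the rest.

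For miR-30b-5p the share in the 5p counts was 12.6%, 10.8% and 11.4% in controls, 3.20%, 8.61% and 3.82% after L-Tyr and 8.15%, 7.71% and 10.0% after 5-Brd-2′-dU. It was below every control library in all 6 exposed libraries (exact permutation p = 0.1 for each exposure, adjusted 0.375). Because miR-30b and miR-30d are neighbours on chromosome 15, their ratio was also taken, a choice made after their values were seen. There were 4.94, 6.06 and 5.80 counts of miR-30d-5p for each count of miR-30b-5p in controls, 25.0, 8.63 and 20.4 after L-Tyr, and 9.33, 8.82 and 6.37 after 5-Brd-2′-dU. All exposed libraries had a higher ratio than all controls, with L-Tyr replicate 2 and the 5-Brd-2′-dU libraries in the same range. The exact permutation p on the log2 ratio was 0.1 for each exposure against control, the smallest possible, and 0.3 between the exposures, unadjusted. The ratio rests on the same counts as the shares, so these p-values are not separate evidence.

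**Figure D3:**
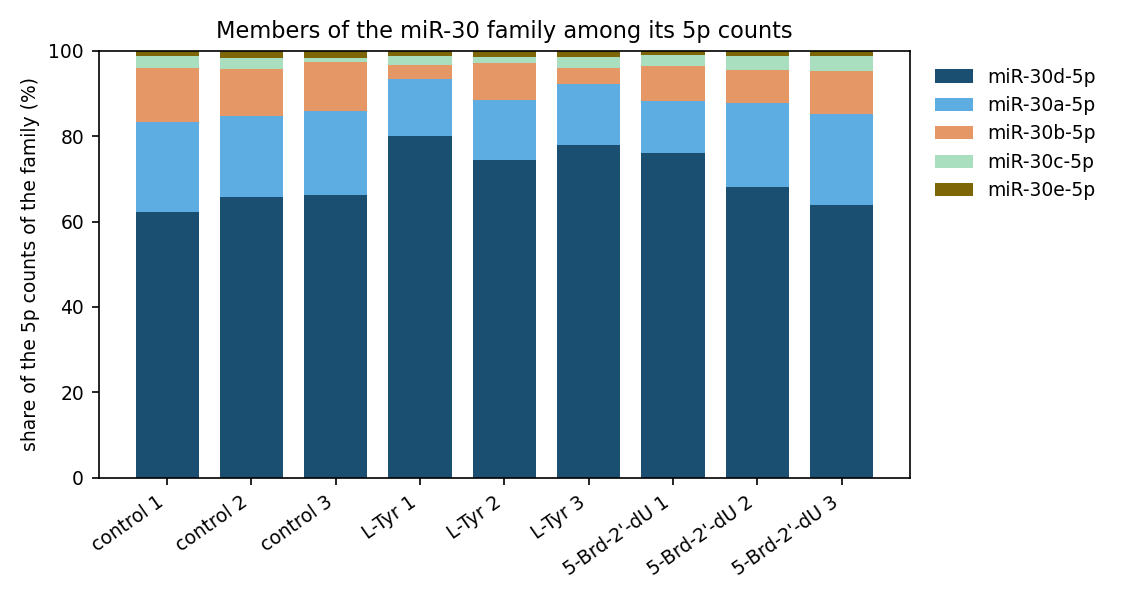
Share of each miR-30 member in the 5p counts of the family, in percent, stacked for each of the 9 libraries. The miR-30d-5p segment reaches 74.3% to 80.0% in L-Tyr libraries and 62.2% to 66.3% in controls, and the miR-30b-5p segment is narrowest in L-Tyr replicates 1 and 3.

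The members differed in which arm was counted. No tag in the table was longer than 20 nt, while the mature sequences printed above have 22 or 23 nt. Whether this limit shaped the levels and arm shares was not tested. Over all libraries miR-30d had 5p counts alone. The share of 3p counts of miR-30b ran from 0% to 3.29%. In miR-30e the 3p arm held most of the counts in 8 of 9 libraries, with 63.7%, 70.7% and 71.8% in controls, 36.5%, 64.2% and 61.0% after L-Tyr and 71.9%, 75.5% and 64.9% after 5-Brd-2′-dU. The exposures did not overlap with each other for miR-30e, narrowly (64.2% against 64.9% at the closest), with an exact permutation p = 0.1 (adjusted 0.514 over 12 tests).

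For miR-30a the 3p share was 34.6%, 37.6% and 41.3% in controls and 28.1%, 31.5% and 27.7% after L-Tyr. All L-Tyr libraries were below all controls, by 8.70 points on average (SE 2.28, exact permutation p = 0.1, adjusted 0.514). After 5-Brd-2′-dU it was 39.8%, 21.4% and 10.9%, a spread that reached from within the control range to far under it (exact permutation p = 0.3). In miR-30c the share ran from 22.9% to 76.9% and the groups overlapped. The 3p arm of miR-30c had 243 counts in each of the 3 control libraries, from tags that were only in part the same. Of these, 211, 230 and 243 were of miR-30c-2-3p and 32, 13 and 0 of miR-30c-1-3p. The copies could be told apart on this arm, with 1763 counts for miR-30c-2-3p and 150 for miR-30c-1-3p over the 9 libraries. The excess of miR-30c-2-3p was seen in every library.

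**Figure D4:**
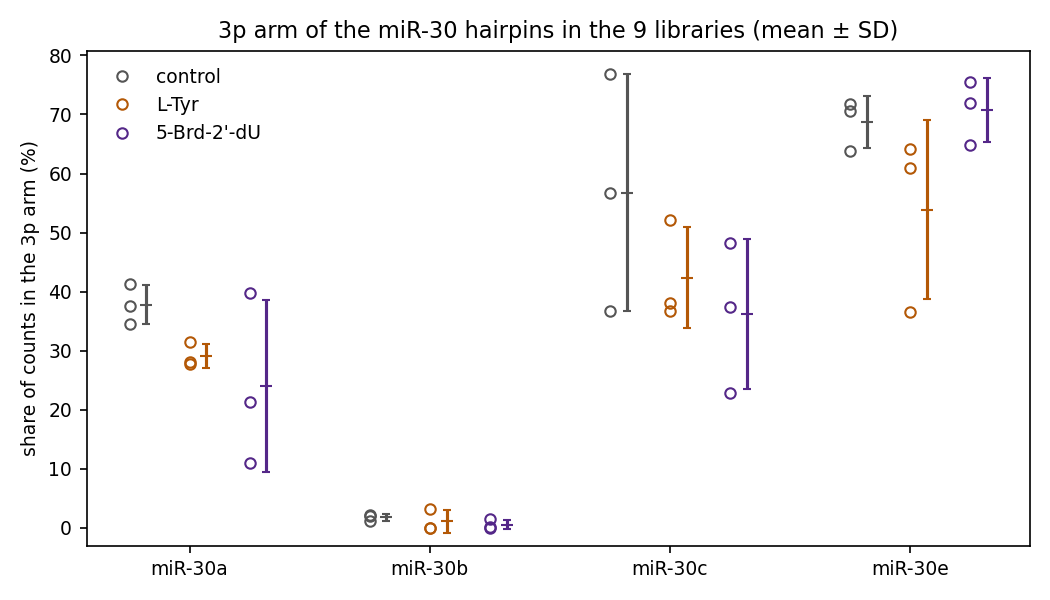
Share of the 3p arm in the counts of each miR-30 hairpin name, in percent; circles are libraries, and the bars beside them are mean ± SD (n = 3). The miR-30a shares after L-Tyr (27.7% to 31.5%) lie under those of controls (34.6% to 41.3%), and those after 5-Brd-2′-dU run from 10.9% to 39.8%; miR-30d has no 3p counts and is not drawn.

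The 5′ end of a microRNA sets its seed, so the start of the tags was tabulated for the 5p arms. The mature 5′ end was taken as the first 5p start position among the tags of each hairpin, which is the RefSeq start for miR-30a, miR-30c and miR-30e. No tag in the table was longer than 20 nt, and 67.3% of the counts of the family were in tags of 20 nt, so that where a tag starts largely fixes where it ends. Over all libraries, 35.9% of the counts of miR-30d-5p began at the mature 5′ end and 34.6% began 3 bases further in. In miR-30a-5p 20.9% began at the mature end and 58.6% began 3 bases further in, and in miR-30e-5p these were 21.3% and 66.3%. The tags of miR-30b-5p began at its first position in 3.00% of counts and 2 bases further in for 50.2%. The most abundant tags of miR-30a-5p and miR-30b-5p show these later starts.
miR-30a-5p tag: aaacatcctcgactggaagc
miR-30b-5p tag: taaacatcctacactcagct
A tag that starts 3 bases in lacks the first bases of the seed of the mature form. How far the limit of 20 nt shaped these starts was not tested.

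By library, miR-30d-5p had 30.9% to 32.5% of its counts at the mature end in controls, 30.2% to 38.6% after L-Tyr and 33.4% to 45.7% after 5-Brd-2′-dU. Replicate 3 of 5-Brd-2′-dU, the library with the high miR-143-3p, had the largest share at the mature end for 4 of the 5 members. There it was 92.9% for miR-30c-5p (484 of 521 counts, 95% Wilson interval 90.4% to 94.8%), against 0.962% to 57.5% in the other 8 libraries. For miR-30e-5p the share was 6.59%, 1.95% and 5.13% in controls, from 6, 5 and 6 counts at that end. It was 62.5%, 25.0% and 35.2% after 5-Brd-2′-dU, without overlap, though on as few as 56 counts (35 of 56, Wilson interval 49.4% to 74.0%). After L-Tyr it was 42.5%, 37.9% and 0%. The miR-30d-5p shares also did not overlap between 5-Brd-2′-dU and control, while those of miR-30a-5p, miR-30b-5p and miR-30c-5p did. These shares were not tested, and their intervals cover counting error only, since PCR copies of a molecule are counted as separate reads.

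**Figure D5:**
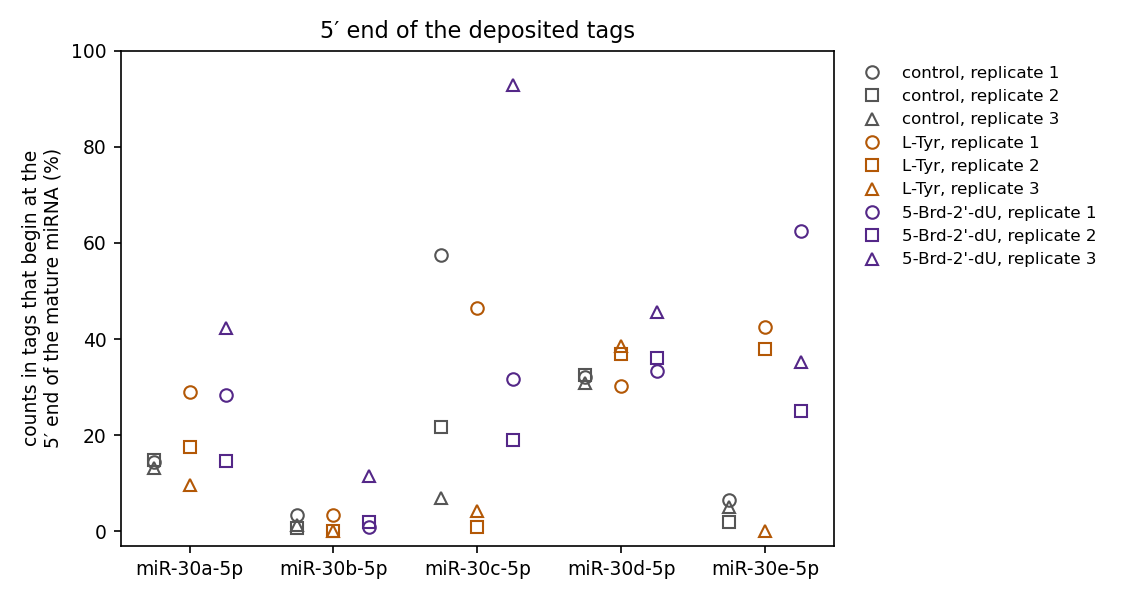
Share of the counts of each miR-30 5p arm in tags that begin at the 5′ end of the mature microRNA, in percent, for each library; colour gives the group and shape the replicate number. The miR-30d-5p points lie between 30.2% and 45.7%, and the highest point is replicate 3 of 5-Brd-2′-dU for miR-30c-5p, at 92.9%.

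The names most like miR-30d-5p across the 9 libraries were taken as the 3 with the highest Pearson correlation of log2 CPM among 253 other names. They were miR-149-5p (r = 0.856), miR-10b-5p (r = 0.827) and let-7d-3p (r = 0.791), over n = 9 libraries that share their depth and scaling with miR-30d-5p. The level of miR-149-5p was 2338, 2560 and 3101 CPM in controls, 4922, 4051 and 4133 CPM after L-Tyr and 1954, 2187 and 3035 CPM after 5-Brd-2′-dU. As for miR-30d-5p, its L-Tyr libraries were above all others. The level of miR-10b-5p was 9920 to 11110 CPM in controls, 14238 to 16018 CPM after L-Tyr and 9519 to 10267 CPM after 5-Brd-2′-dU. Within the family, the arm most like miR-30d-5p was miR-30e-5p (r = 0.778, n = 9), and its neighbour miR-30b-5p had r = −0.34 with it.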

How the data were processed

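Small RNA of 9 B16F1 cultures was measured. The authors made the deposited raw counts with the BaseSpace Small RNA app, comparing reads with mm9 and miRBase. Of the other deposited tables, which hold normalized counts and the authors' DESeq2 comparisons (fold changes and p-values), none was used.

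Counts were summed by hairpin name and arm over the whole table (2120 names and arms, 700 with a count). Of the tags of the family, 126 matched their hairpin exactly in NCBIM37, with 98.7% of its counts. The members and lists were chosen with earlier results of these data known. All members were named, with any other name sharing their 5p seed, the most abundant name, and the 3 names most correlated with the most abundant member.

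Each comparison used its 6 libraries in edgeR 4.0.16 (R 4.3.3), with TMM, filterByExpr and the quasi-likelihood F test, adjusted by Benjamini-Hochberg over all names tested and called at an adjusted p under 0.05. The SE is the log2 fold change divided by the square root of F. CPM used TMM factors over 9 libraries, and correlations were taken on log2 CPM (prior count 2). Shares were compared with exact two-sided permutation tests in Python 3.11.15 (scipy 1.17.1). The edgeR steps were tested on simulated data with known changes. Alternatives were DESeq2 1.42.0 size factors and Wald test, total count scaling, leaving out the most abundant name, no filter, all 9 libraries, a replicate block, the most abundant tag, shared tags left out, each sequence counted once, tags of 17 nt or more, and each library left out. A value counted as reversed when its sign differed and at least 1 of the pair lay more than 1 SE from 0. Whether the replicates came from separate cultures rests on the design text, and p-values measure the spread between these libraries.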

Additional observations from a re-analysis of the deposited data

How the results depend on the processing

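The number of member arms called after L-Tyr against control was 1, and it was 0 when only the most abundant tag was tested, where 1256 tags shared the adjustment. It ranged from 0 to 1 when 1 library was left out. In the other comparisons it was 0 under every alternative run. Of the log2 fold changes, 2 turned when only the most abundant tag was tested, to 0.90 for miR-30c-3p in L-Tyr against control and to 0.75 for miR-30e-3p in 5-Brd-2′-dU against control; the cause was not tested. The 3p share of miR-30b in 5-Brd-2′-dU against L-Tyr turned from −0.520 to 0.577 percentage points without L-Tyr replicate 2, the only L-Tyr library with counts of that arm, and ranged from −1.07 to 0.577 when 1 library was left out. No other share turned by this measure (a change of sign with at least 1 value more than 1 SE from 0).

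With a block for the replicate number, miR-30d-5p after L-Tyr had a log2 fold change of 0.88 (adjusted p 0.0070 in edgeR), and 1, 0 and 0 member arms were called in the 3 comparisons. Over all names the block moved the calls from 6 to 11, from 12 to 1 and from 6 to 2. The correlations of libraries with the same number were between −0.11 and 0.07, and not every library correlated best with its own number, so the numbers were not taken as pairs.

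With 3 libraries a group, exact tests cannot go below 0.1. Calls over all names moved by more than 1.5 times with other choices too. In L-Tyr against control they ranged from 0 (without L-Tyr replicate 3, with 33 names at an unadjusted p under 0.05) to 18 (DESeq2's Wald test), and in 5-Brd-2′-dU against control from 0 (the most abundant tags, with 156 at an unadjusted p under 0.05, and without control replicate 2, with 38) to 50 (no filter). In 5-Brd-2′-dU against L-Tyr they ranged from 1 to 27 (no filter).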
